A study of Mus musculus with 12 samples.

Results

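The replication-dependent histone genes lie in the Hist1, Hist2, Hist3 and Hist4 clusters. They were taken here as every gene whose symbol starts with Hist1h, Hist2h, Hist3h or Hist4h in the gene tables of the series, 59 of 20981 genes. Of these, 6 encode the linker histone H1, 14 encode H2A, 17 H2B, 10 H3 and 12 H4. The Hist1 cluster on chromosome 13 holds 49 of them, the Hist2 cluster on chromosome 3 holds 6, the Hist3 cluster on chromosome 11 holds 3 and the Hist4 cluster on chromosome 6 holds 1. Hist3h2bb-ps is annotated as a pseudogene. All 12 RNA-seq libraries came from testes of Mael-/- C57BL/6 mice aged about 3 months, with 3 libraries per group and no library of another genotype. Mael encodes a factor of the piRNA pathway, and mutant male germ cells make large amounts of the LINE-1 (L1) retrotransposon and of its RNA-binding protein ORF1p. TOTAL is RNA of the clarified testis extract, to which EDTA was added at 10 mM, a chelator that takes ribosomes apart. INPUT is RNA of sucrose gradient fractions 5 to 8 of that extract, IP is RNA pulled from INPUT with an antibody against ORF1p, and BO (Beads Only) is RNA pulled from INPUT by beads without antibody. The comparisons ask which histone RNAs were present with ORF1p complexes, relative to the beads control, to the material before the pull-down and to the whole extract. Whole testis was used, so fewer cells of a type and less RNA per cell cannot be told apart.

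Replication-dependent histone mRNAs supply the core histones H2A, H2B, H3 and H4 and the linker histone H1 while DNA is copied in S phase. Most are short, lack introns and end in a conserved stem-loop in place of a poly(A) tail. The stem-loop is bound by the protein SLBP, and together with the U7 small nuclear RNP it directs the cut that makes the 3′ end. In the testis, some of these genes encode variants of male germ cells. Hist1h1t encodes H1t of spermatocytes, and the neighbours Hist1h2ba and Hist1h2aa encode the testis forms of H2B and H2A.

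The stem-loop was searched in the GENCODE M21 transcripts of GRCm38, the assembly that mm10 names, as GG, any 2 bases, CTTTT, any base, AG, any 2 bases and CC, on the transcript strand. It was found in 37 of the 59 genes, and in 89 of 55341 annotated genes (0.161%). It started 22 to 55 bases after the stop codon, with a median of 32. For 15 of the 22 genes without a match, the 3′ UTR of the longest annotated transcript was under 25 bases, so the annotated transcript ended where the stem-loop would lie. No match says only that these letters are not in the annotated transcript. The matches had 6 spellings, and 1 gene of each is shown with 5 flanking bases, 5′ to 3′ in the sense of the mRNA, the capitals marking the 16 bases of the stem-loop.
Hist1h1c (chr13:23739512-23739527, plus strand): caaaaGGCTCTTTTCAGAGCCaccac
Hist1h1t (chr13:23696525-23696540, plus strand): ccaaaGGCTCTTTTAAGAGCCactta
Hist1h4c (chr13:23698089-23698104, minus strand): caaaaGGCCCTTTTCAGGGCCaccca
Hist1h4j (chr13:21735437-21735452, plus strand): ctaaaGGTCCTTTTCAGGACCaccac
Hist1h4i (chr13:22040966-22040981, minus strand): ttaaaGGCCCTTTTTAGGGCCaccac
Hist2h2ac (chr3:96220418-96220433, minus strand): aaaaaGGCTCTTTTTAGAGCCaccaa

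The spelling shown for Hist1h1c was shared by 20 genes, all of types H1, H2A, H2B or H3. The spellings of Hist1h4c (6 genes), Hist1h4j (2 genes) and Hist1h4i (2 genes) were found in H4 genes alone among the 37. The spelling of Hist1h1t was found in 6 genes, Hist1h1t, Hist1h2bb, Hist1h2bk, Hist1h3c, Hist1h3e and Hist1h3f. The spelling of Hist2h2ac was found in that gene alone. In IP vs. TOTAL, the log2 ratio of the group means had a median of -2.19 over the 20 genes with the spelling of Hist1h1c, -2.40 over the 6 with that of Hist1h4c and -1.56 over the 6 with that of Hist1h1t, which ranged from -2.55 to 0.62. The 37 genes with a match had a median of -2.20 and the 22 without -2.54, so both sets lay far below the -0.03 of all genes. In IP vs. BO, 35 of the 37 and 18 of the 22 were at least 2-fold higher, against 35.2% of all genes. These counts took a pseudocount of 1 and no limit on low means.

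The near identity of these genes limits how reads can be assigned. Of all 75-base windows of a gene's transcripts, the length of the reads, a median of 63.8% over the 59 genes occurred in no other annotated gene. In 22 genes fewer than 50% of the windows were unique, in 2 genes (Hist2h2bb and Hist2h3b) none was, and in 5 genes all were. A window also counted as shared where it lay, on either strand, in a gene that overlaps the same place. Hist2h2bb shared windows with Gm20628 and Gm42743 alone, and Hist1h2aa with Gm44344 alone, all of which overlap them. The unique share therefore mixes overlap with near identity and is not the share of reads with a single place. Reads that matched several places stand in a row of their own in the tables and were not given to a gene, and that row held 18.2% of the TOTAL signal, 7.35% of INPUT, 5.62% of BO and 5.30% of IP. Another annotated gene overlapped 19 of the 59, on the opposite strand for 17 and on the same strand for 5. Hist1h1e and Hist1h2be overlap each other on the same strand. Of the genes named below, Hist1h2ab, Hist1h2af, Hist1h2an, Hist1h2bn, Hist1h3h, Hist1h4b, Hist1h4k, Hist1h4n and Hist2h2ab also had fewer than 50% unique windows. Levels of these genes are therefore uncertain, and their part in the differences between groups was not tested, except that the counts are also given over the 37 genes with at least 50% unique windows. In IP vs. TOTAL the median log2 ratio was -2.17 over these 37 genes and -2.61 over the other 22. The unique share had a Spearman rho of 0.34 with the ratio to TOTAL (n = 59) and 0.20 with that to INPUT (n = 52).

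The tables give each group as the authors' mean of normalized counts. For IP, the mean of a gene stands in 3 tables with 3 different scalings, and the whole reads of the 3 IP libraries were solved from these values for all 19151 genes with IP reads. The largest distance from a whole number was 0.186 of a read. The 3 IP libraries, here called a, b and c because they could not be tied to replicate numbers, held 21387454, 19754089 and 20549345 reads on genes. Of these, 21599, 21475 and 19225 fell on histone cluster genes. The tables give each control group as 1 mean, and the authors' own test columns were not used, so no test between groups is given here. A difference is described by the ratio of the group means, by the spread of the 3 IP libraries and by the share of all genes that passed the same ratio. Mael itself had 0 IP reads and mean normalized counts of 0.50 in BO, 0 in INPUT and 0.65 in TOTAL.

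Histone cluster RNA took a smaller share of the gene signal at each step from the extract to the pull-down, and the smallest share on beads without antibody. The 59 genes together made up 0.410% of the gene signal in TOTAL, 0.173% in INPUT and 0.0227% in BO. In the 3 IP libraries they made up 0.0936%, 0.101% and 0.109% of the reads on genes, with a mean of 0.101% ± 0.00758 (SD, n = 3). The share was 2.36-fold lower in INPUT than in TOTAL and 4.05-fold lower in IP than in TOTAL. It was 4.46-fold higher in IP than in BO. All 3 IP libraries lay below the means of TOTAL and INPUT and above the mean of BO. A share of this kind also moves with the RNAs that fill the rest of a library.

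**Figure D1:**
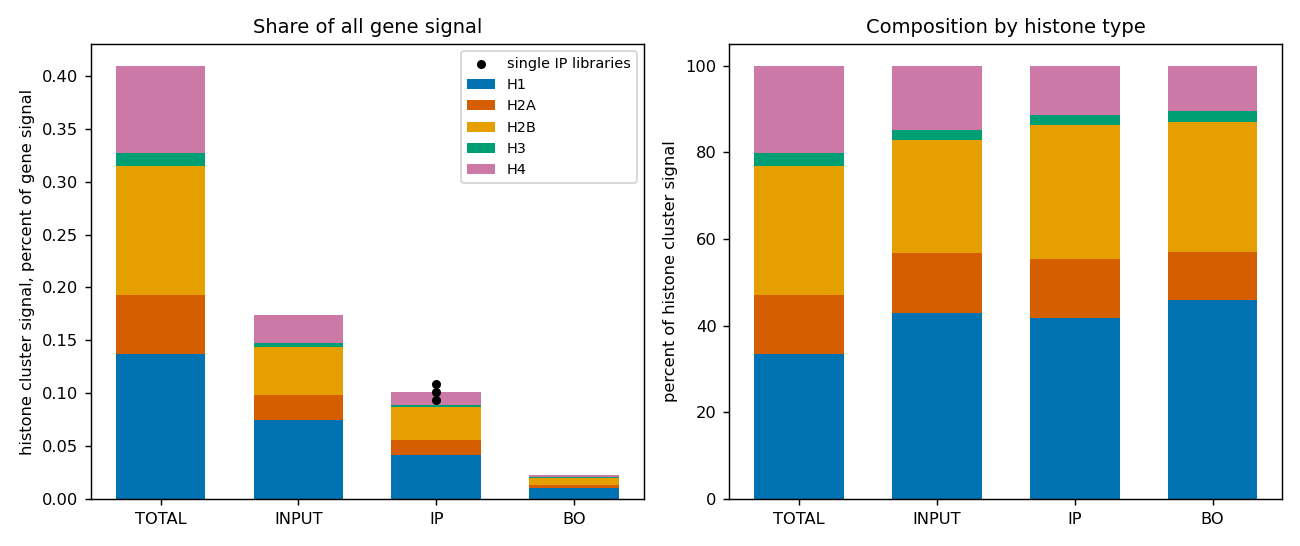
Left, signal of the histone cluster genes as percent of the signal on all genes, stacked by histone type, with the 3 single IP libraries as points. Right, the same signal as percent of the histone cluster total. The share drops from 0.410% in TOTAL to 0.173% in INPUT and 0.101% in IP, with 0.0227% in BO, and H4 takes less of the total in IP than in TOTAL.

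The composition by type also differed between groups. H1 genes held 33.5% of the histone cluster signal in TOTAL, 42.9% in INPUT, 46.0% in BO and 41.6% ± 1.3 (SD, n = 3) in IP. H4 genes held 20.1% in TOTAL, 14.8% in INPUT, 10.6% in BO and 11.4% ± 0.72 (SD, n = 3) in IP. H2B genes held 29.8% in TOTAL, 26.3% in INPUT, 30.1% in BO and 31.0% ± 1.7 (SD, n = 3) in IP, with the INPUT share below the spread of the IP libraries and the others within it. H2A genes held 13.6% in TOTAL, 13.8% in INPUT, 10.9% in BO and 13.8% ± 1.1 (SD, n = 3) in IP. Single genes weigh heavily in these shares. Hist1h2ba made up 9563 of 19971 summed H2B counts in TOTAL and 5457 of 7303 in IP. Hist1h2aa made up 3698 of 9140 H2A counts in TOTAL and 2090 of 3258 in IP. The H2B and H2A shares are therefore not those of a typical gene of the type. H3 genes held the least, 3.07% in TOTAL, 2.28% in INPUT, 2.43% in BO and 2.28% ± 0.22 (SD, n = 3) in IP.

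Within TOTAL, mean normalized counts ranged from 20.1 (Hist1h2ae) to 15038 (Hist1h1a), with a median of 342. Hist1h1a, an H1 gene at chr13:23763666-23764406, alone held 22.4% of the histone cluster signal, and the 5 highest genes held 55.04%. These levels compare genes of different length, so they were also divided by the length of the longest transcript. Per kilobase, the highest TOTAL levels were those of Hist1h2ba (24904 normalized counts per kb), Hist1h1a (20295), Hist1h2aa (9482), Hist1h4k (7269) and Hist1h4c (5128), against a median of 573 over the 59 genes. In IP the highest levels per kb were 14212 for Hist1h2ba, 7656 for Hist1h1a and 5360 for Hist1h2aa, with a median of 103. No spread over TOTAL libraries can be given, so neighbours in this order cannot be separated. Hist1h2ba, Hist1h2aa and Hist1h4k are annotated as coding sequence alone, of 384, 390 and 312 nt, and a short annotated length raises a level per kb. The order thus also depends on the annotation, and the one used for counting is not known here.

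IP vs. TOTAL. Nearly all histone cluster RNAs were lower in IP than in the extract. All 59 genes averaged at least 10 normalized counts over both groups, and 55 were at least 2-fold lower in IP, where 26.5% of the 14666 genes with such a mean were. None was at least 2-fold higher, where 20.6% of genes were. The median log2 ratio of the means was -2.32 for the histone cluster genes and -0.03 for all genes. For 58 of the 59 genes every IP library lay below the TOTAL mean, as in 44.6% of all genes, and for Hist1h1t every IP library lay above it. Over the 37 genes with mostly unique windows the median was -2.17, with 33 at least 2-fold lower.

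The size of the ratio to TOTAL is given by type, with no test between types, and 26.5% of all genes were at least 2-fold lower. The median log2 ratio was -1.34 for H1, where 4 of 6 genes passed 2-fold, -2.42 for H2A (13 of 14), -2.48 for H2B (16 of 17), -2.19 for H3 (10 of 10) and -2.69 for H4 (12 of 12). Hist1h1a had 15038 normalized counts in TOTAL and 4972, 6023 and 6025 in the IP libraries, a log2 ratio of -1.41. Hist1h1c, another somatic H1 gene, had 4434 in TOTAL and 1399, 1721 and 1895 in IP, also a log2 ratio of -1.41. The other H1 genes were Hist1h1b (-1.74), Hist1h1d (-1.27), Hist1h1e (-0.45) and Hist1h1t (0.62). For 5 of the 6 H1 genes every IP library lay below the TOTAL mean, and for Hist1h1t every one lay above it. Hist1h1e overlaps Hist1h2be, which lay at -2.32.

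The highest H2B and H2A genes in TOTAL, Hist1h2ba and Hist1h2aa, were less than 2-fold lower in IP (-0.81 and -0.82) and are described with the testis genes. The other core histone genes among the 3 highest in TOTAL of their type were at least 2-fold lower. Hist1h4c had 4205 normalized counts in TOTAL and 779, 830 and 853 in IP, a log2 ratio of -2.36. Hist1h4k had 2268 in TOTAL and 297, 338 and 345 in IP (-2.80), and Hist1h4j 1801 and 253, 261 and 262 (-2.80). In these 3 H4 genes no IP library came near the TOTAL mean.
For H2B, Hist1h2bm had 2548 in TOTAL and 464, 510 and 577 in IP (-2.30), and Hist1h2bb 1638 and 250, 258 and 331 (-2.55). For H3, Hist1h3a had 484 in TOTAL and 89.8, 92.0 and 134 in IP (-2.20). Hist1h3f had 342 and 131, 139 and 156 (-1.27), and Hist1h3c 280.5 and 77.1, 88.5 and 94.1 (-1.70). For H2A, Hist3h2a had 3270 in TOTAL and 441, 500 and 696 in IP (-2.58), while Hist1h2ak had 536 and 142, 177 and 300 (-1.38). Hist1h2ak was the most variable between IP libraries of the 25 genes with an IP mean of at least 100, with a coefficient of variation of 40.4%, against a median of 12.6%.

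Low ratios to TOTAL were found for H4 and H2A genes, 3 of which had almost no IP reads. Hist1h4a, at chr13:23760692-23761230, had 506 normalized counts in TOTAL and 24.5, 34.8 and 39.0 in IP, a log2 ratio of -3.95. Hist1h4b had 246 in TOTAL and 12.9, 22.4 and 32.6 in IP (-3.44). Hist1h4n had a mean of 38.6 in TOTAL and 0, 0 and 2 reads in the IP libraries, which gives too few reads for a ratio, and 16.6% of its windows are unique. The H2A genes Hist1h2ae and Hist1h2af were likewise low, with means of 20.1 and 22.9 in TOTAL and at most 3 reads in an IP library, so these 3 genes count as lower by their TOTAL level and take no place in an order. Among the 12 H4 genes the highest log2 ratio was that of Hist1h4d, -1.29, and the median was -2.69.

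**Figure D2:**
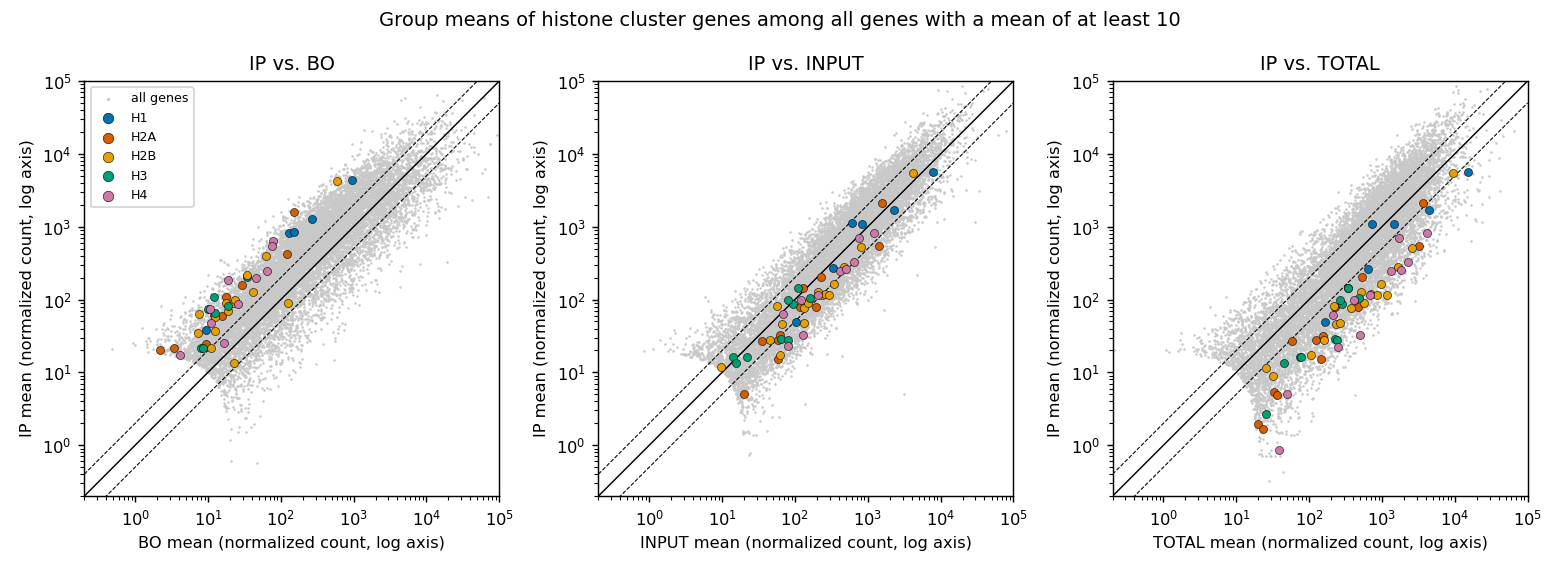
Mean normalized count in IP against the mean in BO, INPUT or TOTAL on log axes, for all genes averaging at least 10 over both groups (grey) and for histone cluster genes by type. The solid line marks equal means and the dashed lines 2-fold, and most histone cluster genes lie above the band against BO, in and below it against INPUT, and below it against TOTAL.

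INPUT vs. TOTAL. Part of the difference was present before the pull-down. INPUT and TOTAL stand in separately scaled tables and were compared through the IP mean that each table holds. On that scale 49 of 59 genes were at least 2-fold lower in INPUT, against 18.6% of the 14620 genes that averaged at least 10, and none was higher, against 2.42%. The median log2 ratio was -1.53, and -0.17 for all genes. By type the medians were -0.87 for H1, -1.25 for H2A, -1.55 for H2B, -1.69 for H3 and -1.74 for H4. No H1 gene passed 2-fold, and all 10 H3 and 12 H4 genes did. Hist1h1t differed least (-0.27). The lowest ratio was that of Hist2h3b (-2.46), which has no unique window. Among genes with a unique window, Hist1h3d (-2.40) and Hist1h2bc (-2.32) differed most. No spread can be given for this comparison.

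IP vs. INPUT. Relative to the gradient fractions the pull-down started from, the histone cluster genes were lower on balance but by less. Of 52 genes averaging at least 10, 16 were at least 2-fold lower in IP, against 14.9% of 14400 genes, and none was higher, against 20.7%. The median log2 ratio was -0.64, and 0.15 for all genes. Every IP library lay below the INPUT mean for 39 genes and above it for 8, and the other 5 genes had IP libraries on both sides. Over all genes, 37.0% lay below in every IP library and 48.2% above. The count depends on the scaling, as 20 genes passed 2-fold when the ratios were centred on the median gene (background 18.3%) and 32 when the summed gene means were set equal (background 28.5%). The other 7 genes had a mean under 10 over both groups. With a pseudocount of 1 and no limit, 21 of 59 were lower and none higher, against 14.0% and 17.3% of all genes.

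The 8 genes above INPUT in every IP library included the testis genes. They were Hist1h1t (log2 ratio 0.88), Hist1h2bp (0.54), Hist1h2aa (0.44), Hist1h2ba (0.41), Hist1h3f (0.39), Hist1h1e (0.37), Hist1h3d (0.22) and Hist1h2ab (0.16). Scaling the groups by upper quartiles or by sums lowers all of these ratios by 0.35 or 0.53 on the log2 scale, which puts Hist1h3d and Hist1h2ab below zero in the first setting and all but Hist1h1t and Hist1h2bp in the second. Among the 52 genes averaging at least 10, the 5 lowest were Hist2h2ab (-2.01), Hist1h4a (-1.95), Hist2h2ac (-1.94), Hist2h2be (-1.85) and Hist1h4b (-1.80). In these 5, every IP library lay below the INPUT mean. By type, with a pseudocount of 1 and no limit, 1 of 6 H1, 8 of 14 H2A, 6 of 17 H2B, 2 of 10 H3 and 4 of 12 H4 genes were at least 2-fold lower. In that setting 14.0% of all genes were lower, and the H1 and H3 counts lay near that share.

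IP vs. BO. Histone cluster RNAs were higher in the ORF1p pull-down than on beads without antibody. Of 46 genes averaging at least 10, 42 were at least 2-fold higher in IP, against 44.4% of 13634 genes, and none was at least 2-fold lower, against 11.4%. The median log2 ratio was 2.24, and 0.82 for all genes. After centring on the median gene, 35 of 46 were at least 2-fold higher, against 18.8% of genes, and 2 were lower. A gene low in BO could pass the limit only by being high in IP, so all 59 were also taken with a pseudocount of 1. In that setting 53 of 59 were at least 2-fold higher and none lower, against 35.2% and 9.58% of all 20981 genes. In BO 23 of the genes had a mean under 10, and Hist1h2ae and Hist1h4n were listed at 0.

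By type, with a pseudocount of 1 and no limit, 6 of 6 H1, 13 of 14 H2A, 14 of 17 H2B, 10 of 10 H3 and 10 of 12 H4 genes were at least 2-fold higher. In that setting 35.2% of all genes were higher. Among the 46 genes averaging at least 10, the 5 largest ratios were those of Hist1h2aa (3.41), Hist1h4h (3.31), Hist1h2an (3.21), Hist1h3f (3.19) and Hist1h2bp (3.07). This order depends on the limit, since Hist1h2an had a BO mean of 2.22 and at most 10 BO reads, and genes with still fewer BO reads were left out of it. Hist1h4h had a mean of 18.9 in BO and 187 in IP on the scale of that table.
Hist1h2bc and Hist2h2be, both H2B genes, lay the other way in every IP library. The mean of Hist1h2bc was 125 in BO and 88.5 in IP (log2 ratio -0.50), and that of Hist2h2be 22.9 and 13.4 (-0.77). Neither passed 2-fold. Hist1h4a (0.59), Hist1h2bg (0.97) and Hist1h3h (1.35) had the next lowest ratios, and for these every IP library was above the BO mean, although Hist1h4a lies below the median of all genes, 0.82. Hist1h2bc was also the gene whose BO level came closest to INPUT, with a log2 ratio of -0.52 for BO vs. INPUT through IP. In that comparison 48 of 49 genes were at least 2-fold lower in BO, against 34.9% of 13999 genes, none was higher, against 9.44%, and the median was -2.79, against -0.57 for all genes. Here too a gene low in BO passed the limit through INPUT, and with a pseudocount of 1 and no limit 58 of 59 were lower, against 29.6% of all genes.

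**Figure D3:**
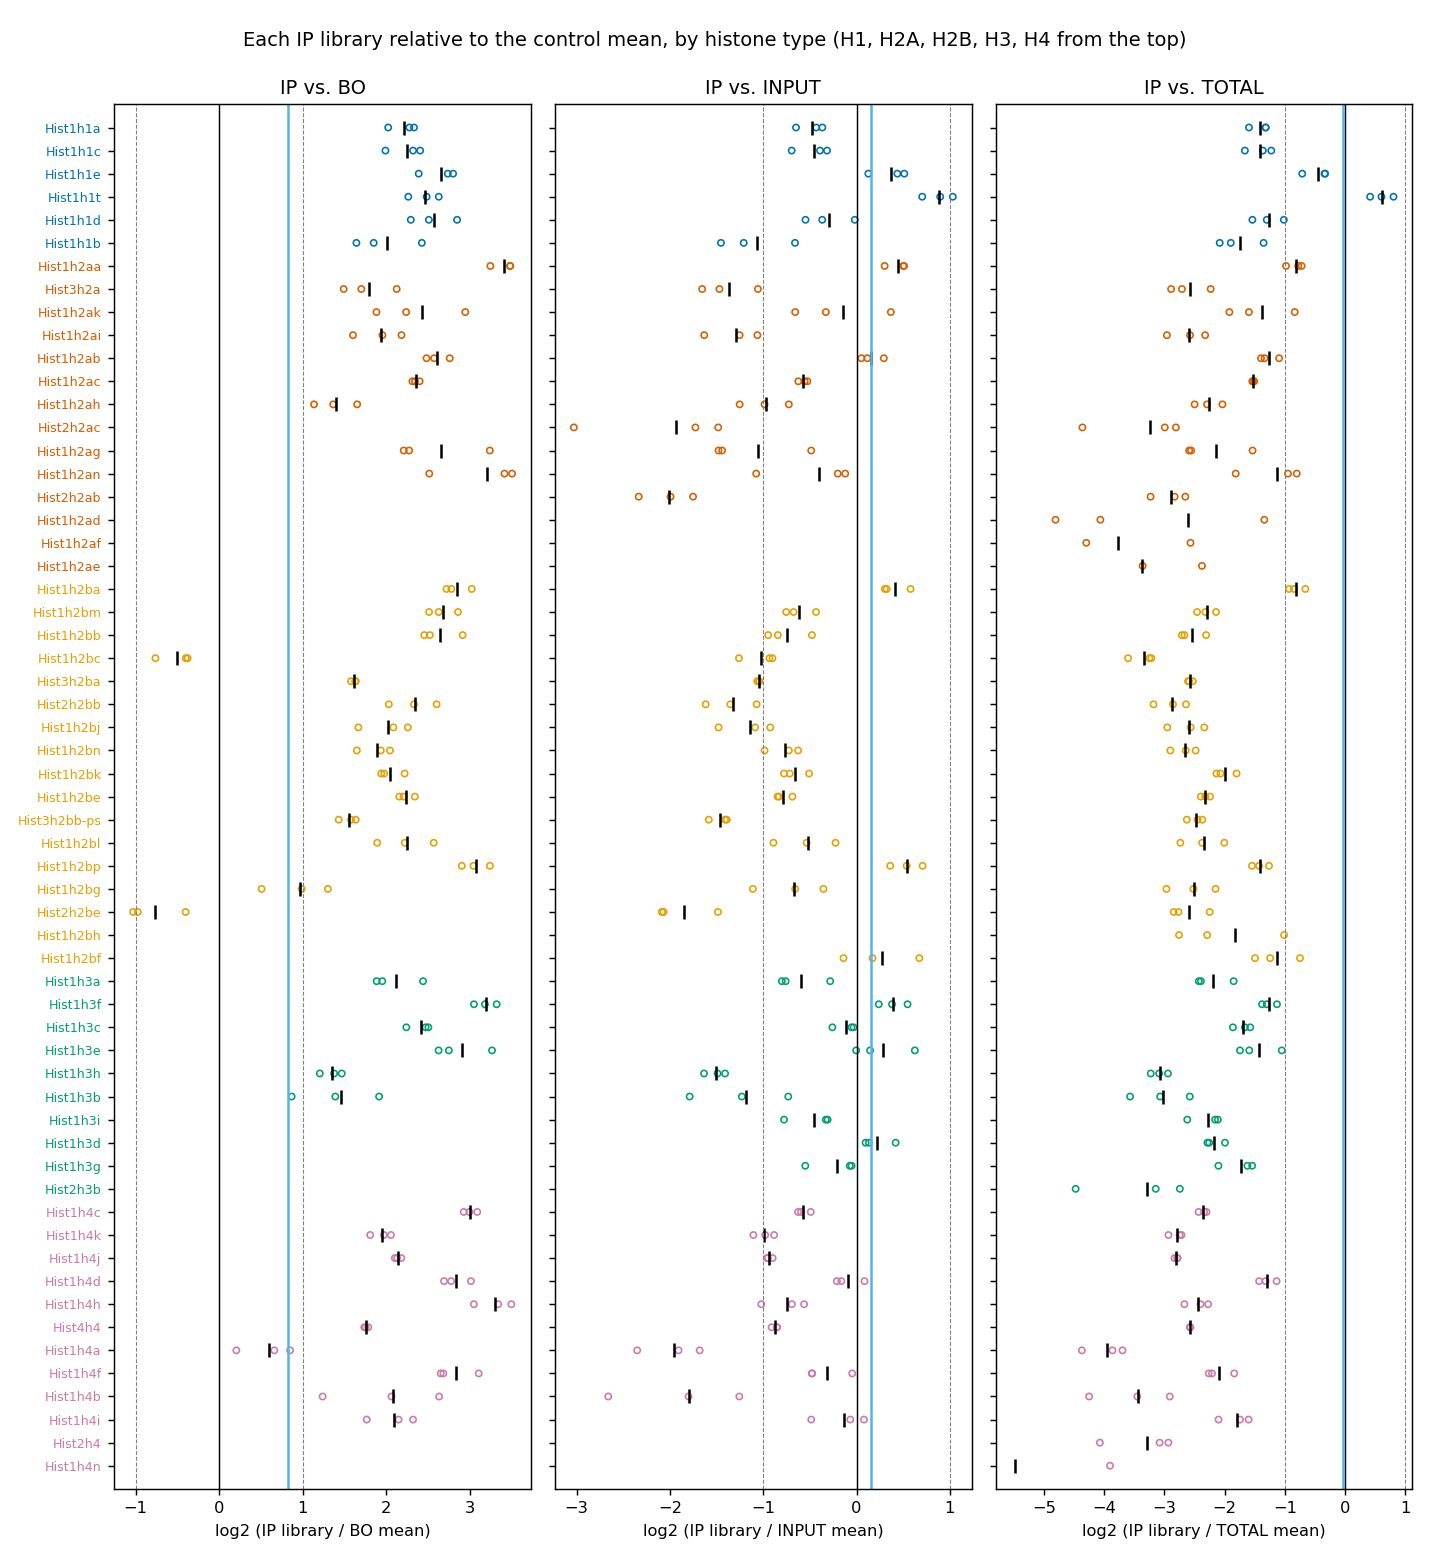
Log2 ratio of each recovered IP library (circles) and of the IP mean (black ticks) to the mean of BO, INPUT or TOTAL, for histone cluster genes averaging at least 10, ordered by type and TOTAL level. The blue line is the median of all genes and the dashed lines are 2-fold, libraries with 0 reads are not drawn, and the circles of a gene mostly stay on 1 side of zero.

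The testis genes and Hist1h1e were the 4 genes not at least 2-fold lower in IP than in TOTAL, and the testis genes took a larger share of the histone cluster signal in IP than in TOTAL. Against INPUT and BO their ratios lay among those of other histone cluster genes, apart from the highest ratio to INPUT for Hist1h1t and the highest to BO for Hist1h2aa. Hist1h1t, encoding the H1 of spermatocytes (chr13:23695814-23696725), had 721 normalized counts in TOTAL and 961, 1095 and 1258 in IP, a log2 ratio of 0.62, and was the only gene of the 59 above TOTAL. Hist1h2ba (chr13:23933773-23934156) had 9563 in TOTAL and 5016, 5304 and 6052 in IP (-0.81), and Hist1h2aa (chr13:23934462-23934851) 3698 and 1873, 2156 and 2242 (-0.82). Only Hist1h1e, at -0.45, lay between these and Hist1h1t, and Hist1h2an came next at -1.13.
Against INPUT, Hist1h1t had a mean of 601 in INPUT and 1108 in IP, Hist1h2ba 4138 and 5489, and Hist1h2aa 1547 and 2099, and of these only Hist1h1t stays above INPUT when the summed gene means are set equal. Against BO, the means were 153 and 846, 582 and 4185, and 151 and 1601. Together the 3 genes held 20.8% of the histone cluster signal in TOTAL, 22.3% in INPUT, 26.6% in BO and 36.7% ± 0.97 (SD, n = 3) in IP. Their summed signal was 1.62-fold lower in IP than in TOTAL, and that of the other 56 genes 3.55-fold lower. Of the other 56 genes, none had a log2 ratio to TOTAL above -0.45. The spermatocyte markers Sycp1, Sycp3, Ddx4, Spo11, Dmc1 and Hormad1 were at least 2-fold higher in IP in all comparisons, 6 of 6 each time. Their median log2 ratio was 2.55 against TOTAL. Of all genes, 20.6% were at least 2-fold higher against TOTAL, 20.7% against INPUT and 44.4% against BO. The part of these markers in the values of the testis genes was not tested.

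Hist1h2ba and Hist1h2aa are transcribed away from each other with 305 bases between their annotated starts. Both GENCODE transcripts hold coding sequence alone, so these starts are the start codons, and the bases and positions given here are counted from the codon and include any 5′ UTR. The 250 bases before the start of Hist1h2ba (RefSeq symbol H2bc1, GRCm38.p6, chr13:23934157-23934406, minus strand) are shown because these neighbours had nearly the same ratio to TOTAL and to INPUT, with capitals for CCAAT boxes, TATAA and the octamer. Those ratios compare RNA pools of the extract, and any part of this sequence in them was not tested.
Hist1h2ba upstream: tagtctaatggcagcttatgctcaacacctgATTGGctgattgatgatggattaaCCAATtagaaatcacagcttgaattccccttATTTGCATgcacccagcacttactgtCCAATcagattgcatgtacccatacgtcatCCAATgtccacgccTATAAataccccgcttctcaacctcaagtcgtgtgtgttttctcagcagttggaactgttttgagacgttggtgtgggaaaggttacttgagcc
CCAAT was found 4 times, at -219 (as ATTGG), -195, -138 and -108 from the start codon, TATAA at -94 and the octamer ATTTGCAT at -164. The motifs were searched on both strands and did not overlap. Of 27025 RefSeq promoters in the table used, 37.9% held CCAAT, 25.5% TATAA and 1.75% the octamer, and of the 53 histone cluster promoters matched there 84.9%, 81.1% and 24.5% did. These shares were taken over whole promoter records, which reach past the start, and not over a stretch like the 250 bases shown. Such matches describe the sequence and are not evidence of a bound factor.

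The 59 genes form 12 divergent pairs with 172 to 659 bases between their starts, 11 of an H2A with an H2B gene and 1 of Hist1h2bh with Hist1h3f. Over the pairs, the TOTAL levels of the partners had a Spearman rho of 0.776 and a Pearson r of 0.747 on the log2 scale (n = 12 pairs, which share libraries and near-identical sequence). In 7 of the 11 H2A and H2B pairs the H2B gene was higher. Partners could differ in their ratio to TOTAL. Hist1h2ac had a mean of 229 in TOTAL and a log2 ratio of -1.53, and its partner Hist1h2bc 1175 and -3.35. Hist1h2ak had 536 and -1.38, and Hist1h2bn 569 and -2.67. In the Hist1h2bc IP libraries, the highest value was 126 normalized counts.

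**Figure D4:**
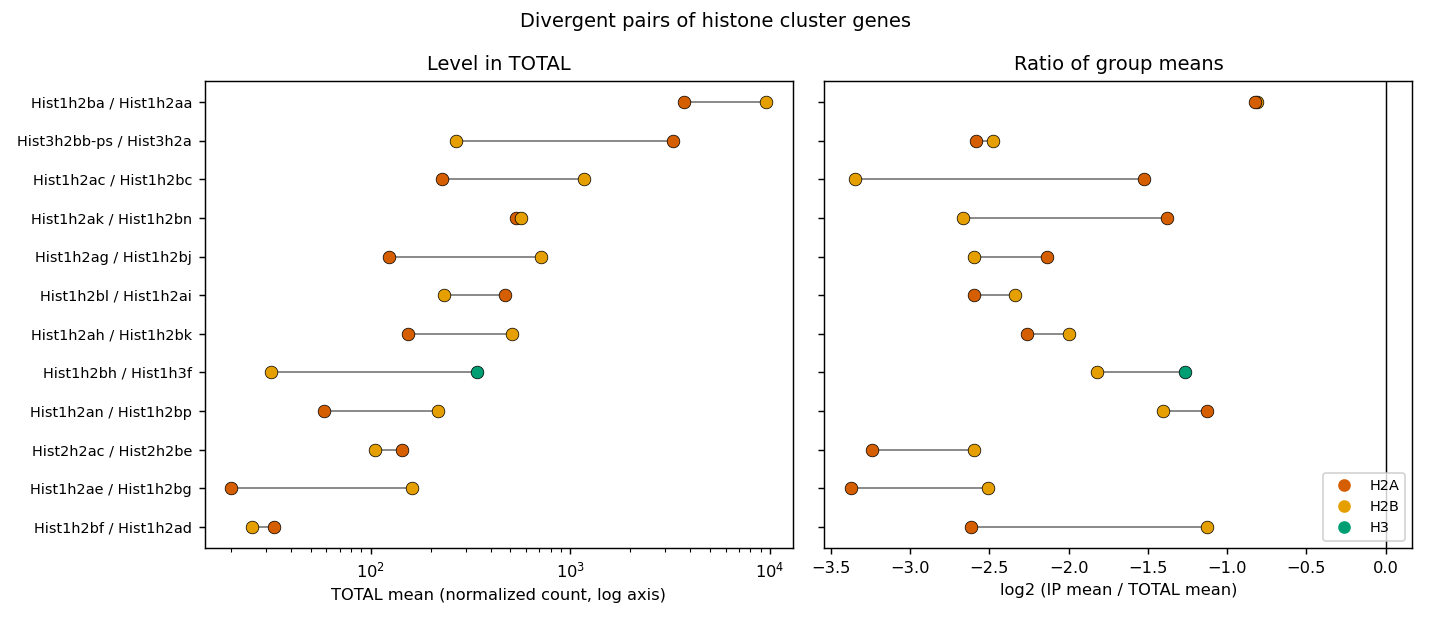
Left, mean normalized count in TOTAL (log axis) of both genes of each divergent pair, and right, their log2 ratio of the IP mean to the TOTAL mean, coloured by histone type and joined by a line. Hist1h2ba and Hist1h2aa coincide at about -0.8, and Hist1h2ac and Hist1h2bc lie apart.

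Relative to TOTAL, the Hist2 and Hist3 genes had lower median ratios than the Hist1 genes, a difference that was not tested. All 6 Hist2 genes were at least 2-fold lower than in TOTAL, with a median log2 ratio of -3.06, as were all 3 Hist3 genes (-2.58) and Hist4h4 (-2.57), against -2.17 for the 49 Hist1 genes, of which 45 were at least 2-fold lower. The share over all genes was 26.5%. The Hist2 genes held 1.81% of the histone cluster signal in TOTAL and 0.680% ± 0.029 (SD, n = 3) in IP, and the Hist3 genes 6.73% and 3.20% ± 0.45 (SD, n = 3). Against INPUT, with a pseudocount of 1 and no limit, 5 of 6 Hist2 genes, 3 of 3 Hist3 genes and 13 of 49 Hist1 genes were at least 2-fold lower, against 14.0% of all genes, and Hist4h4 was not. Against BO, 5 of 6 Hist2 genes, 3 of 3 Hist3 genes, Hist4h4 and 44 of 49 Hist1 genes were at least 2-fold higher in the same setting, against 35.2% of all genes.
Hist2h2bb had 851 normalized counts in TOTAL and 93.7, 117 and 136 in IP (-2.88). None of its windows is unique, and these are shared only with genes that overlap it. Hist2h2ac had 144 in TOTAL and 6.99, 18.04 and 20.5 in IP (-3.24). Hist2h2ab, Hist2h4 and Hist2h3b had TOTAL means of 36.7, 49.3 and 25.9 and IP means of 4.96, 5.07 and 2.65. Hist2h2be, all of whose windows are unique, had 105 in TOTAL and 14.6, 15.5 and 22.1 in IP (-2.60).
Hist3h2ba had 982 in TOTAL and 161, 163 and 170 in IP (-2.58). The pseudogene Hist3h2bb-ps had 267 and 43.1, 48.8 and 51.5 (-2.48), and its partner Hist3h2a lay at -2.58. Hist4h4 had 681 in TOTAL and 114, 114 and 115 in IP.

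The ratios of histone cluster genes were close to those of short genes as a whole in INPUT vs. TOTAL and lay further from zero in IP vs. BO. The longest transcript had a median of 534 nt over the histone cluster genes and 3385 nt over genes averaging at least 10, and 45 of the 59 were under 1000 nt. Among all genes under 1000 nt, the histone cluster genes included, the median log2 ratio was -2.11 in IP vs. TOTAL (histone cluster genes -2.32), 1.52 against BO (2.24) and -0.41 against INPUT (-0.64). It was -1.56 in INPUT vs. TOTAL (-1.53) and -1.86 in BO vs. INPUT (-2.79). At least 2-fold lower than TOTAL were 74.9% of the 642 short genes averaging at least 10, and 93.2% of the histone cluster genes. These shares depend on the limit, since with a pseudocount of 1 and none, 810 of 2136 short genes and 55 of 59 histone cluster genes were lower. At least 2-fold higher than BO were 66.5% of 480 short genes averaging at least 10, and 91.3% of the histone cluster genes with such a mean. Taken with a pseudocount of 1 and no limit, 511 of 2136 short genes and 53 of 59 histone cluster genes were higher. Among genes averaging at least 10, the order against INPUT was the other way. At least 2-fold lower were 34.9% of 584 short genes and 30.8% of the histone cluster genes. With a pseudocount of 1 and no limit, 415 of 2136 short genes and 21 of 59 histone cluster genes were lower, which turns that order. Across all genes, length had a Spearman rho of 0.42 with the log2 ratio to TOTAL (n = 13994 genes, which are not independent and share libraries), 0.06 with that to INPUT (n = 13744) and -0.37 with that to BO (n = 13025). Within the 59 genes the rho with the ratio to TOTAL was 0.17, and the 14 genes of at least 1000 nt had a median of -2.00, against -2.36 for the 45 shorter ones. The part of length in the ratios of the histone cluster genes was not tested beyond these values.

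**Figure D5:**
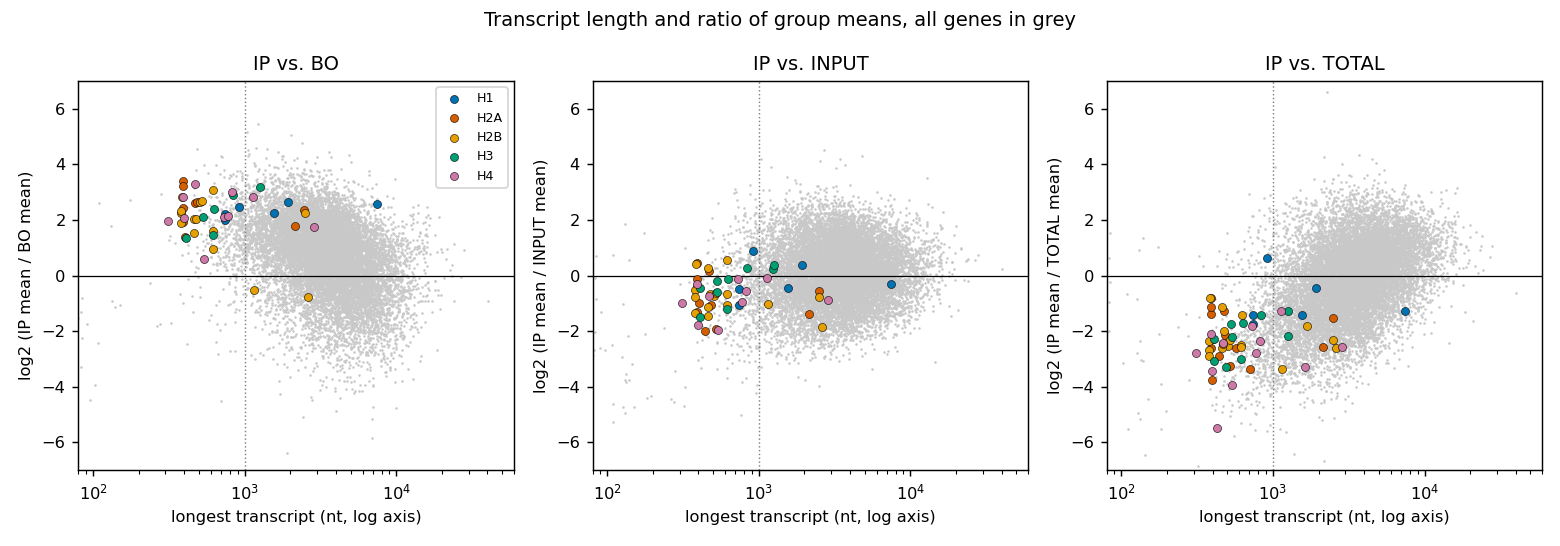
Log2 ratio of the IP mean to the BO, INPUT or TOTAL mean against the length of the longest transcript (log axis), for all genes averaging at least 10 (grey) and for histone cluster genes by type. The dotted line marks 1000 nt. Most histone cluster genes lie left of it, low against TOTAL and high against BO, as many other short genes do.

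The mRNAs for proteins that make, bind or degrade histone mRNA are given for comparison, as counts beside the shares over all genes and with no test. Of 21 such genes, 11 were at least 2-fold higher and 3 lower than in TOTAL (all genes 20.6% and 26.5%), with a median log2 ratio of 1.11. Against INPUT 10 were higher and none lower (all genes 20.7% and 14.9%), and against BO 13 were higher and none lower (all genes 44.4% and 11.4%). The mean of Slbp, the stem-loop binding protein, was 1611 in TOTAL and 4214 ± 544 (SD, n = 3) in IP, and 929 in INPUT and 4242 in IP. Npat, the activator of histone gene transcription at the start of S phase, had 2662 in TOTAL and 11228 ± 1930 (SD, n = 3) in IP, and Casp8ap2 (FLASH) of the processing machinery 3333 and 15947 ± 2349 (SD, n = 3). Neither was 2-fold higher than in BO, with log2 ratios of -0.37 and 0.06. Lsm10 and the Sm protein genes Snrpb and Snrpd3 were the 3 lower than TOTAL (-2.52, -1.05 and -1.03).

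Of 18 replication-independent histone genes, which are expressed outside S phase and whose mRNAs are polyadenylated in most cases, 13 averaged at least 10 in IP vs. TOTAL. Of these 1 was higher and 6 were lower, against 20.6% and 26.5% of all genes, and the median log2 ratio was -0.53. Against INPUT 3 of 12 were higher and 1 lower, near the 20.7% and 14.9% of all genes. Against BO 9 of 12 were higher and none lower, against 44.4% and 11.4%. H2afx, encoding the H2A.X that is phosphorylated at DNA breaks, had 3675 in TOTAL and 1293 ± 507 (SD, n = 3) in IP. H3f3b, an H3.3 gene, had 4656 in TOTAL and 5275 ± 1874 (SD, n = 3) in IP, a difference within the spread of the IP libraries. H2bfm was the gene higher in IP vs. TOTAL, with 87.6 in TOTAL and 454 ± 53.0 (SD, n = 3) in IP.
In the next lists the shares of all genes that were higher are again 20.6% against TOTAL, 20.7% against INPUT and 44.4% against BO. Of 16 histone chaperone genes, 6 were higher than in TOTAL and none lower, 8 higher and none lower than in INPUT, and 11 higher and none lower than in BO. Nasp, whose protein binds free histones and H1, had 3732 in TOTAL and 6570 ± 972 (SD, n = 3) in IP. Of 20 genes of DNA replication in S phase, 11 were higher and 1 (Tyms) lower than in TOTAL. Of the same 20, 13 were higher and 1 lower than in INPUT, and 18 higher and none lower than in BO. Mcm5, a subunit of the replicative helicase, had 1738 in TOTAL and 6753 ± 496 (SD, n = 3) in IP.

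Marker genes place the histone values in the tissue. Genes of spermatids, the cells in which histones give way to transition proteins and protamines, were near absent. Prm1, Prm2, Tnp1, Tnp2 and Acrv1 had means between 11.7 and 39.3 in TOTAL, between 1.93 and 9.90 in INPUT and at most 0.86 in IP. Prm3, listed with the protamines, had 2.16 in TOTAL and 0 in IP. Of the 6 spermatogonial markers, none was at least 2-fold higher and 2 were lower in IP than in TOTAL. Leydig cell markers were lower in 4 of 4, Sertoli cell markers in 3 of 5, and the 2 measured markers of macrophages and blood in 2 of 2, against 26.5% of all genes. Against INPUT the counts of lower genes were 1 of 6 spermatogonial, 3 of 4 Leydig, 2 of 5 Sertoli and 1 of 2 macrophage and blood markers, against 14.9% of all genes, and none was higher. Against BO 2 spermatogonial markers were higher and 2 lower, 1 Leydig marker was higher, 2 Sertoli markers were lower, and of macrophage and blood markers 1 was higher and 1 lower, against 44.4% of all genes higher and 11.4% lower. Summed, the Leydig markers had 47679 normalized counts in TOTAL and 10228 in IP, and the spermatocyte markers 22396 and 140199.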

How the data were processed

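The genes and lists were chosen with earlier results of these data known. The authors mapped 75-base single-end reads of ribosomal RNA-depleted stranded libraries to mm10 with STAR 2.6.0c and compared IP with each other group in DESeq2 1.24.0. The counter, the annotation and the use of strand are not given in the sources used here. The deposited signal is the authors' mean normalized count per group, in 3 tables scaled separately. Their log2 fold changes, errors, statistics and p-values were not used, nor were 12 columns of repeat values per library. Rows for unmapped, multi-mapped, unassigned and ambiguous reads, 38.6% of TOTAL, 30.5% of INPUT, 37.9% of BO and 22.1% of IP, were left out.

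Log2 ratios of the means were taken for genes averaging at least 10 over both groups, and 2-fold ratios counted. IP reads per library were solved from the 3 scaled IP means (100% whole within 0.3 of a read; method tested on simulated data). 1 read was worth 0.239 to 0.502 of the BO mean, 0.244 to 0.329 of INPUT and 0.209 to 0.326 of TOTAL. The planned tests on values per library could not be run on group means. Named genes are the 3 highest in TOTAL per type, H1, testis, Hist2, Hist3 and Hist4 genes and the 5 highest and lowest ratios per IP comparison. Hist1h2ab, Hist1h2ac, Hist1h2be, Hist1h2bn, Hist1h3d and Hist1h4d were added after their values were seen, and Hist1h2bh, Hist1h2bk, Hist1h3e and Hist1h4i are named for their sequence or position alone. Lengths, stem-loops and windows came from GENCODE M21, promoters from RefSeq (numpy 2.4.6, pandas 2.3.3). Alternatives were other scalings, pseudocounts of 1 and 10, limits of 100 or none, a ratio of 1.5, mostly unique genes, the median transcript, and each IP library left out. The last, and the absence of a limit in INPUT vs. TOTAL and BO vs. INPUT, were chosen after seeing the data.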

Additional observations from a re-analysis of the deposited data

How the results depend on the processing

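No paired analysis was possible because each control group is used as 1 mean and the recovered IP libraries carry no replicate number. No median of the histone cluster genes and no ratio past 2-fold of a gene named by rule changed sign. Smaller ratios did. Scaled by sums, Hist1h1e, Hist1h2aa, Hist1h2ba and Hist1h3f went from above to below INPUT (-0.16, -0.09, -0.13 and -0.14). Hist1h4a went below BO when centred (-0.23) or scaled by upper quartiles (-0.03), Hist1h2bc went above INPUT in BO vs. INPUT with each table centred on its own median gene before joining (0.15), and Hist1h2ak went above INPUT without IP library a (0.06). In IP vs. BO, the median log2 ratio was 1.42 centred on the median gene, 1.62 scaled by upper quartiles and 1.95 by sums. In these settings 2, 2 and 1 genes were lower (all genes 24.4%, 20.7% and 15.2%). The median was 1.70 with a pseudocount of 10 and 2.02 with a pseudocount of 1 and no limit. With a mean of at least 100, 15 of 16 genes were higher (median 2.605), and of the mostly unique genes 27 of 31. At 1.5-fold 1 gene was lower. Leaving out each IP library gave 42 to 43 higher, 0 to 1 lower (1 without library b) and medians of 2.19 to 2.29. In IP vs. INPUT, the median was -0.79 centred, -0.99 by upper quartiles with 26 genes lower (all genes 23.2%), and -1.17 by sums with 32 lower (all genes 28.5%). With a mean of at least 100, 6 of 29 were lower, of the mostly unique genes 8 of 34 (all genes 14.9%), and at 1.5-fold 28 were lower and 1 higher. In no comparison is a share of all genes given at a mean of at least 100 or at 1.5-fold, so those counts have no background here. Leaving out each IP library gave 14 to 17 lower and medians of -0.68 to -0.56. In IP vs. TOTAL, the median was -2.45 by upper quartiles, -2.84 by sums, -1.92 with a pseudocount of 10, and -2.17 over the mostly unique genes, 33 of 37 of which were lower. At 1.5-fold 1 gene was higher. Leaving out each IP library gave 54 to 55 lower and medians of -2.37 to -2.28, with no value for Hist1h4n without the library that held its 2 reads. With each table centred on its own median gene before joining, the median was -1.35 in INPUT vs. TOTAL and -2.12 in BO vs. INPUT. In INPUT vs. TOTAL, it was -1.29 with a pseudocount of 10, and 29 of the 37 mostly unique genes were lower. In BO vs. INPUT, it was -3.04 by sums, -2.23 with a pseudocount of 10, -2.69 with a pseudocount of 1 and no limit (58 of 59 lower) and -2.92 with a mean of at least 100, where 22 of 23 were lower, and 31 of the 32 mostly unique genes were lower. A scaling moves all genes of a comparison alike by construction, and the cause of the other shifts was not tested. The median transcript left the medians per kb unchanged. The low BO and INPUT means and the lack of values per control library limit all of these ratios.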
